A study of Mus musculus with 3 samples.

Results

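Genes of the NRF2 pathway and of antioxidant defence were described in Hepa1c1c7 cells, a mouse hepatoma line, after transfection with 1 of 3 vectors, labelled Empty, Cd74 and Tmem54. The members were chosen by symbol, as a list of 32 genes, all of them among the 24841 genes with a symbol on the array. Of these, 31 had a probe well above background on each of the 3 arrays, and only the carbonyl reductase gene Cbr3 had none on any array, so the filter on dim probes favoured no vector. The vectors differ in the gene they carry: Cd74 encodes the invariant chain, a chaperone of MHC class II molecules, and Tmem54 encodes a transmembrane protein. The time after transfection, the share of transfected cells and whether the lines were stable or clonal are not given in the sources used here. Each vector was measured on 1 array with total RNA, all 3 arrays on 1 slide, so replicates are lacking and the differences are values without a test. In RNA from whole cultures, a difference in the share of responding cells and a difference per cell cannot be told apart.

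NRF2, the product of Nfe2l2, is a transcription factor that the adaptor KEAP1 keeps low by directing it to degradation. Electrophiles and oxidants modify KEAP1, NRF2 then builds up, pairs with small MAF proteins and binds antioxidant response elements near genes for glutathione and thioredoxin enzymes, heme and iron handling and NADPH supply. BACH1 occupies many of the same elements and leaves them when heme binds it. Much of this control acts on protein stability, which an RNA array does not read. Hepa1c1c7 cells have long been used to assay inducers of Nqo1, a classical NRF2 target.

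To show what the elements look like in these genes, the proximal promoters of RefSeq (assembly GRCm38.p6, 250 bases before to 50 after a transcript start) were searched on both strands for TGACNNNGC, the core of the antioxidant response element, and for TGANTCA, the core bound by AP-1 factors. The motifs can overlap. Of the members, 28 had a promoter in the table and 11 of these (39.3%) held the TGACNNNGC core, against 14.0% of all 27025 genes. The TGANTCA core was found in 4 of the 28 (14.3%), against 8.97% of all genes. A match is only a match of letters. The stretches below were chosen with the values known. Gclm, Srxn1 and Osgin1 were at least 1.3-fold higher with Cd74 than with Empty. Txnrd1 was higher by less, with a log2 difference of 0.26, and Prdx1 and Me1 were not higher. Positions count from the transcript start, and capitals mark the matches to either core.
Gclm (chr3:122245378-122245467, plus strand, -179 to -90): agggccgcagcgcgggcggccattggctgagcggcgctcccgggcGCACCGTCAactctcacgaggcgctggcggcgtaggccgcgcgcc
Srxn1 (chr2:152105377-152105523, plus strand, -147 to -1): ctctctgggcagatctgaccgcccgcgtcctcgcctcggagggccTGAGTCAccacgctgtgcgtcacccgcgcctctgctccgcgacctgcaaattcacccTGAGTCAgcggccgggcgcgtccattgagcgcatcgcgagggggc
Txnrd1 (chr10:82859069-82859158, plus strand, -137 to -48): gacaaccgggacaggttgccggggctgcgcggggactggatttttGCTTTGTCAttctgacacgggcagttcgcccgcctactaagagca
Osgin1 (chr8:119437005-119437094, plus strand, -142 to -53): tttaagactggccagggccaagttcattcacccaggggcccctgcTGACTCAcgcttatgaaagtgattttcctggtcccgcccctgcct
Prdx1 (chr4:116685349-116685512, plus strand, -250 to -87): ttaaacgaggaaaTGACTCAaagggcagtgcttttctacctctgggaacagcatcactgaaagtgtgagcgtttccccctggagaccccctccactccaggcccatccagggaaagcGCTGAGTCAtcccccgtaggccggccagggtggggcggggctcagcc
Me1 (chr9:86695905-86695965, minus strand, -51 to 10): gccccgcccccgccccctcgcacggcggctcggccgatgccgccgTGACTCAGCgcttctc
The Me1 and Prdx1 cores both read TGACTCAGC in 1 orientation, a sequence in which both motifs overlap. The Gclm core reads TGACGGTGC and the Txnrd1 core TGACAAAGC. The Osgin1 stretch holds only the TGANTCA core and lies at a transcript start 11265 bases inside the gene, and that of Txnrd1 lies at a start 25255 bases inside. Srxn1 also held a TGACNNNGC core 29 bases after its start. TGACNNNGC was matched in 2 of the 4 members at least 1.3-fold higher with Cd74 that had a promoter and in 9 of the other 23. Elements outside the 250 bases before to 50 after a start were not searched. A link of the matches to the signals was not tested. Hmox1, Prdx6, Gclc and Gsr had no entry.

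The arrays were alike in brightness. Between 33049 and 33896 spots per array were well above background, and the 75th percentile of the processed signal was 686.8 for Empty, 656.4 for Cd74 and 692.7 for Tmem54. A signal is the processed signal of a spot before scaling. A level is its log2 value after subtraction of that percentile, and every difference is one of levels, so equal signals on the Empty and Cd74 arrays give a difference slightly above 0. Signals of different genes come from different probes and are not compared. The error of a difference, from the error model of the scanner software, was 0.20 to 0.21 on the log2 scale for every member that passed. It is nearly the same for every bright spot because the software sets it, per the file headers, as a preset share of the signal plus a small additive term. It is an assumed error within arrays, not a measured spread, and covers no difference between cultures. The transfected genes matched the labels: the Cd74 probe had a signal of 26.8, 10856 and 22.4 on the Empty, Cd74 and Tmem54 arrays, and the Tmem54 probe 19747 on its own array and no signal well above background on the others. Of 16 hepatocyte and hepatoma markers 11 were well above background, with summed signals of 501342, 461486 and 525987 for Empty, Cd74 and Tmem54 and with Afp, Krt8 and Krt18 differing by at most 0.07 between a vector and Empty. Alb, for albumin, gave -0.87 with Cd74 and 0.83 with Tmem54. Its part in the members' differences was not tested. The markers Hnf4a, Ttr, Apoa1, Apob and Fgb were not well above background on any array.

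Hmox1 stood out. It was the only member at least 2-fold different in any comparison, about 3.80-fold higher with the Cd74 vector than with Empty. Genes of glutathione synthesis, sulfiredoxin and Osgin1 were 1.33-fold to 1.49-fold higher. By their brightest probes, the pathway's regulators and its peroxidases, dismutases and ferritins lay between -0.19 and 0.20 on the log2 scale. Second probes gave 0.38 for Ftl1 and 0.57 for a probe designed to a non-coding Nfe2l2 transcript. With the Tmem54 vector no member differed from Empty by 1.3-fold. Of the 15630 genes compared between Cd74 and Empty, the share at least 2-fold higher was 1.02% and the share lower 1.4%; of the 31 members, 1 was higher and 0 were lower. Among the 9862 bright genes, defined as well above background everywhere and with a peak signal at or above the median of the detected probes, the shares were 0.253% and 0.324%, against 1 and 0 of the 30 bright members. At the lower limit of 1.3-fold, chosen after the values were seen, 8.34% of genes were higher and 8.9% lower, against 6 and 0 members, and among bright genes 5.07% and 4.6%, against the same 6 and 0 members. The median difference was 0.085 over the members and 0.012 over all genes. Of the 30 bright members, 10 lay above the upper quartile of bright genes and 4 below the lower quartile.

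**Figure D1:**
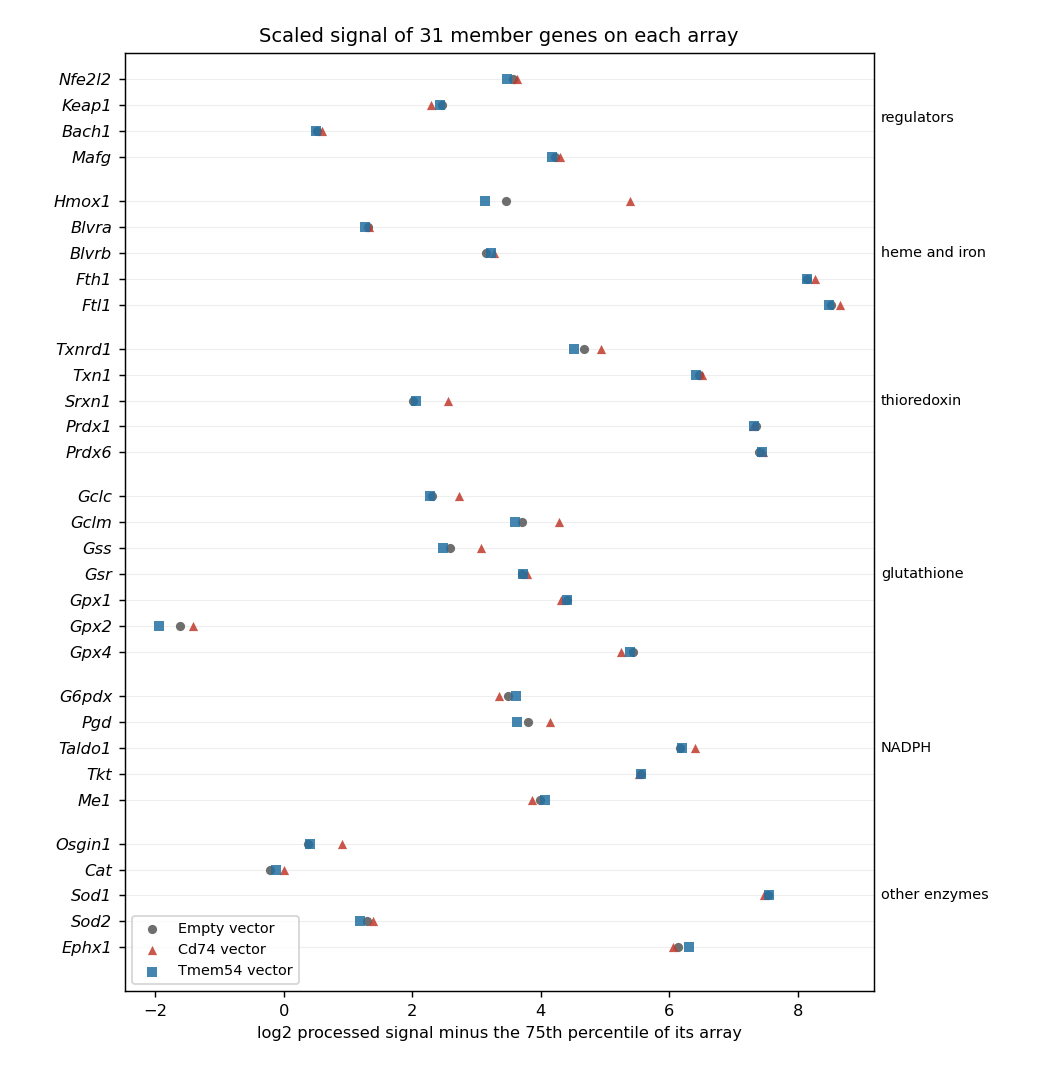
Level of each of the 31 members on the 3 arrays, in log2 units relative to the 75th percentile of its array, with 1 point per vector and genes grouped by function. The Cd74 point of Hmox1, at 5.39, lies apart from 3.46 with Empty and 3.13 with Tmem54, and for most genes the 3 points overlap; levels of different genes come from different probes and cannot be compared.

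By their brightest probes the regulators differed little. Nfe2l2 itself had levels of 3.56 with Empty, 3.63 with Cd74 and 3.47 with Tmem54, a difference of 0.07 ± 0.20 (model error) for Cd74 against Empty. Keap1, which encodes the adaptor that holds NRF2 down, had levels of 2.46, 2.29 and 2.43 in the same order, lowest on the Cd74 array by 0.17 against Empty. Bach1, the repressor that competes for the same elements, gave differences of 0.09 with Cd74 and -0.01 with Tmem54. Mafg, a small MAF partner of NRF2, gave 0.08 and -0.04. All of these lie within the model error of an array pair. The Keap1 probe crosses a splice junction (mm9 chr9:21035292-21035732, a span of 441 bases for 60 bases of probe), so it reads spliced RNA. Its sequence is shown as the probe of the pathway's sensor.
Keap1: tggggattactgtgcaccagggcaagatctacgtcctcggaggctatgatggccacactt

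In the heme and iron group, Hmox1 encodes the inducible heme oxygenase, which opens heme into biliverdin, iron and carbon monoxide. Its processed signal was 7550 with Empty, 27446 with Cd74 and 6076 with Tmem54. The Cd74 array was thus far above both others, which lay within 0.33 of each other. The difference from Empty was 1.93 ± 0.20 (model error) with Cd74, which ranked 4 of 9862 bright genes counting Cd74 itself, and -0.33 with Tmem54. Against Tmem54 the Cd74 array was 4.77-fold higher. The Hmox1 probe lies at mm9 chr8:77624406-77624466, and no second probe of the gene was on the array. Its first 30 bases are given to identify what was read.
Hmox1: gtgggtgggaaagaattattaatagttgta

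The steps after heme oxygenase did not follow it in size. Blvra, for biliverdin reductase A, which makes bilirubin, gave 0.01 with Cd74 and -0.04 with Tmem54. Blvrb, for the B form, a flavin reductase, gave 0.12 and 0.07. The ferritin chains that store the released iron had signals of 194245 for Fth1 and 251508 for Ftl1 on the Empty array, and no spot was saturated. Fth1 differed by 0.13 and 0.00, and Ftl1 by 0.13 and -0.03. A second Ftl1 probe, which crosses a splice junction (mm9 chr7:52714014-52714495), gave signals of 34957, 43604 and 32362 for Empty, Cd74 and Tmem54 and a difference of 0.38 with Cd74, so the 2 probes of Ftl1 disagree in size but not in direction. Ferritin genes have processed copies elsewhere in the genome, which a probe may also read.
Ftl1: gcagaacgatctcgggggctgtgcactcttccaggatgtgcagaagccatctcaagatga

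Genes for each enzyme of glutathione synthesis were higher with Cd74. Gclc, the catalytic subunit of glutamate-cysteine ligase and the rate-limiting enzyme, had a signal of 3396 with Empty, 4326 with Cd74 and 3350 with Tmem54, a difference of 0.41 for Cd74. Gclm, its modifier subunit, went from 8975 to 12743 with Cd74 and was 8375 with Tmem54, a difference of 0.57. Gss, glutathione synthetase, which adds glycine, went from 4125 to 5514 and was 3837 with Tmem54, a difference of 0.48. In each of these genes the Cd74 array was the highest, and the Empty and Tmem54 arrays lay within 0.12 of each other. A second Gss probe, across a junction (mm9 chr2:155390637-155392549), gave 0.42 with Cd74 and 0.02 with Tmem54.
Gss: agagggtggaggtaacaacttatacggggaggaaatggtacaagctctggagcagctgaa

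Gsr and the 3 peroxidase genes among the members were not higher by 1.3-fold. Gsr, the reductase that restores reduced glutathione, gave 0.07 with Cd74. The glutathione peroxidase genes Gpx1, Gpx2 and Gpx4, all for selenoproteins, gave -0.09, 0.20 and -0.19. Gpx4, which reduces lipid hydroperoxides in membranes, had a signal of 29850 with Empty, 25028 with Cd74 and 28864 with Tmem54, the lowest difference of any member on the Cd74 array. Gpx2, the gastrointestinal form and the only member that passed without being bright, had a signal of 223.5 with Empty, 245.8 with Cd74 and 179.9 with Tmem54, the lowest of the 3 arrays. Over the 7 glutathione genes the median difference with Cd74 was 0.20, with 3 at least 1.3-fold higher and 0 lower.

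In the thioredoxin group a single gene passed 1.3-fold. Srxn1, sulfiredoxin, which repairs over-oxidised peroxiredoxins, had a signal of 2773 with Empty, 3850 with Cd74 and 2871 with Tmem54, a difference of 0.54 with Cd74 and 0.04 with Tmem54. Txnrd1, the cytosolic thioredoxin reductase, a selenoprotein, had 17549, 20082 and 15899, a difference of 0.26 with Cd74 and -0.15 with Tmem54. The second Txnrd1 probe (mm9 chr10:82338379-82338438) gave 0.45 and -0.17. Txn1, thioredoxin, gave 0.04, and the peroxiredoxin genes Prdx1 and Prdx6 gave -0.04 and 0.06. Sulfiredoxin was higher on the Cd74 array, while Prdx1, for a typical 2-Cys peroxiredoxin of the kind it repairs, lay within the model error of 0. Prdx6 encodes the 1-Cys form. The Prdx1 promoter holds TGACTCAGC and the Srxn1 promoter a pair of TGAGTCA cores, as shown above.

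The NADPH group was split. Pgd, 6-phosphogluconate dehydrogenase, the second NADPH-making step of the pentose phosphate pathway, had a signal of 9607 with Empty, 11630 with Cd74 and 8600 with Tmem54, a difference of 0.34 with Cd74, just below the limit of 1.3-fold that Gclc at 0.41 passed. Taldo1, transaldolase, gave 0.23. Both Taldo1 probes agreed, with 0.22 for the second. G6pdx, the first and rate-limiting step, gave -0.14 with Cd74 and 0.13 with Tmem54. Me1, the cytosolic malic enzyme, gave -0.13 and 0.08, and its second probe -0.23 and 0.09. Tkt, transketolase, gave -0.03. Pathway neighbours thus lay on either side of 0, with a median of -0.03 over the 5 genes. The Me1 difference with Cd74 lay within the model error. Its TGACTCAGC core begins 6 bases before the transcript start and runs across it. A link between this core and the Me1 signal was not tested.

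Among the other enzymes, Osgin1, an oxidative stress-induced growth inhibitor, had a signal of 886.6 with Empty, 1234 with Cd74 and 914.1 with Tmem54, a difference of 0.54 with Cd74 and 0.03 with Tmem54. Catalase (Cat), the peroxisomal enzyme that breaks down hydrogen peroxide, gave 0.22 and 0.10. The superoxide dismutase genes Sod1, cytosolic, and Sod2, mitochondrial, gave -0.06 and 0.08 with Cd74. Ephx1, microsomal epoxide hydrolase, gave -0.09 with Cd74 and 0.17 with Tmem54. Cbr3 had signals between 2.75 and 4.46, below the lowest signal well above background on any array, and no difference can be given.

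**Figure D2:**
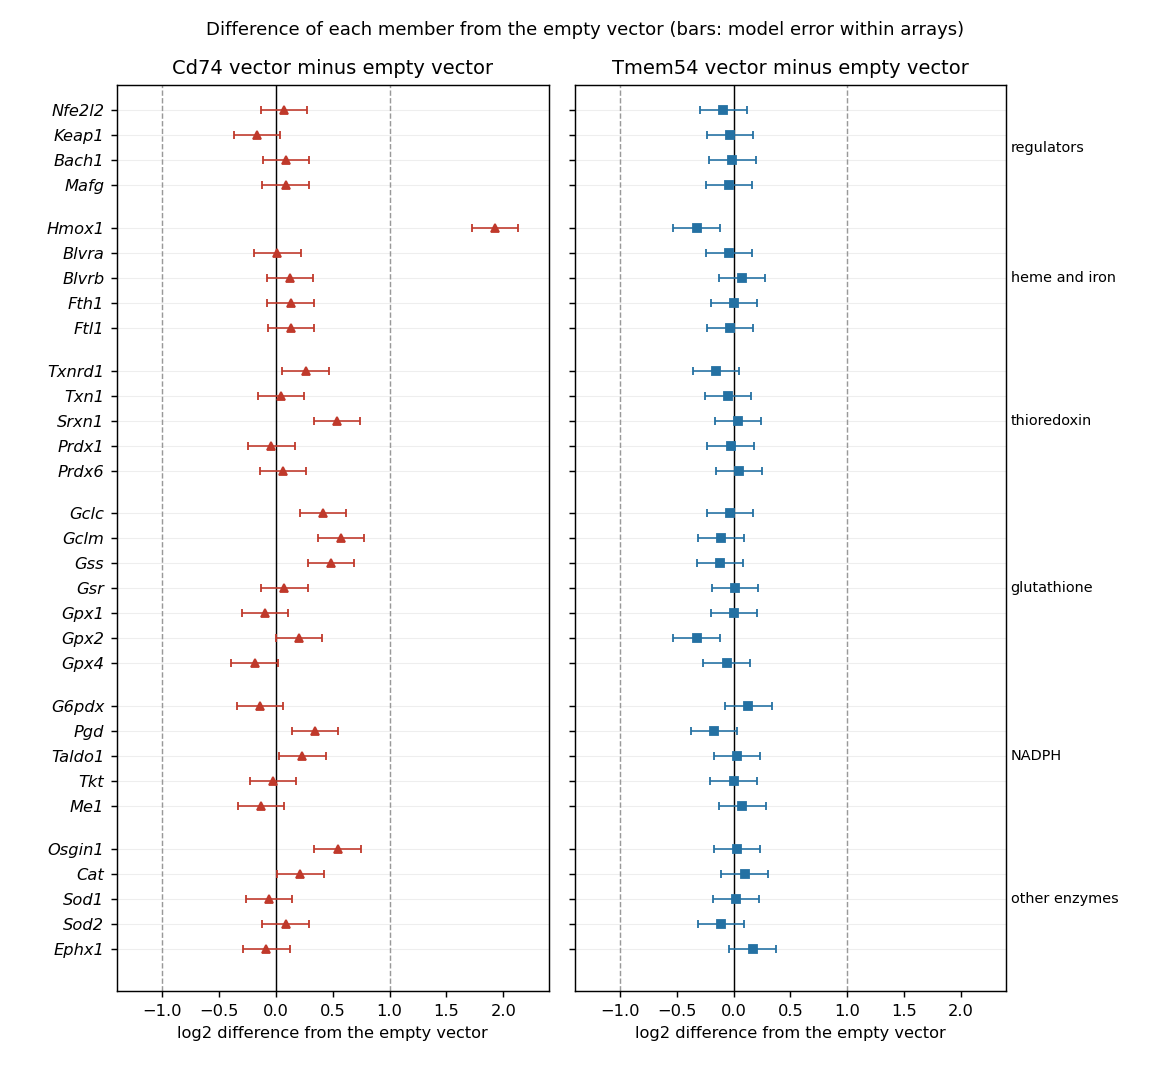
Log2 difference of the Cd74 array (left) and of the Tmem54 array (right) from the Empty array for 31 members, with bars for the model error of 1 array pair and dashed lines at 2-fold. Hmox1 at 1.93 is the only point past a dashed line; Gclm, Osgin1, Srxn1, Gss and Gclc form the next group on the left, from 0.57 down to 0.41, and all points on the right lie between -0.33 and 0.17.

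On the Tmem54 array the members lay between -0.33 for Hmox1 and 0.17 for Ephx1, with a median of -0.03, against 0.00 for all genes. None of the 31 was at least 1.3-fold different, where 3% of the 15521 genes compared were higher and 5.62% lower. Among its 9767 bright genes 0.276% were at least 1.3-fold higher and 0.666% lower, and at 2-fold 0.0307% were higher and 0.123% lower. Differences from Empty were narrower for this vector in general: 5% of bright genes were below -0.15 and 5% above 0.16, against -0.36 and 0.38 for Cd74. Within these ranges 6 of 30 bright members lay above the upper end for Cd74, namely Hmox1, Gclm, Osgin1, Srxn1, Gss and Gclc, and none below the lower end. For Tmem54, Hmox1, Pgd and Txnrd1 lay below the lower end and Ephx1 above the upper end. The model error of 0.20 is larger than either end of the Tmem54 range. Of the members, Hmox1 and Gpx2, at -0.33 each, exceeded it in size.

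**Figure D3:**
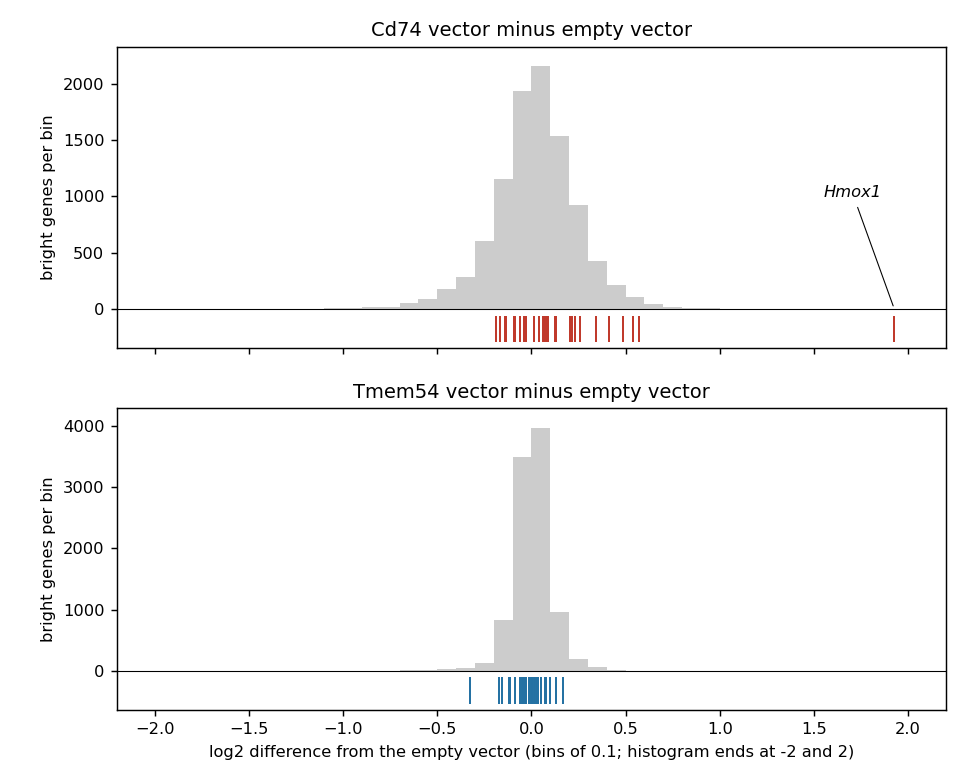
Number of bright genes per bin of 0.1 in log2 difference from the Empty array, for Cd74 (top, 9862 genes) and Tmem54 (bottom, 9767 genes), with the 31 members as ticks under each histogram. Hmox1 lies at 1.93 in the top panel, where the bars are too low to see, and the other members lie between -0.19 and 0.57; in the bottom panel all ticks lie between -0.33 and 0.17.

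Set directly against Tmem54, the Cd74 array had Hmox1 at 2.25 and 9 of 31 members at least 1.3-fold higher, with 0 lower, where 11.4% of the 15423 genes compared were higher and 9.83% lower. The comparison shares its arrays with those against Empty and adds no independent evidence. Added to the 6 genes above were Gpx2 (0.53), Pgd (0.51) and Txnrd1 (0.41). The lowest members were G6pdx (-0.27) and Ephx1 (-0.25). One member, Hmox1, was at least 2-fold higher and 0 were lower, where 1.63% and 1.69% of genes were. Among the 9876 bright genes 7.25% were at least 1.3-fold higher and 7.1% lower, and 0.577% and 0.699% at 2-fold, against 8 higher and 0 lower members at 1.3-fold. The members' median was 0.12 and that of all genes 0.026.

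A second detected probe was present for 13 members. Between the brightest and the next-brightest probe, the Cd74 differences had a median gap of 0.09, with the widest gap of 0.50 at Nfe2l2. By the next-brightest probe 4 of the 13 were at least 1.3-fold higher (Nfe2l2, Ftl1, Txnrd1 and Gss), and by the brightest probe 1 of the 13 (Gss). The share of all genes past 1.3-fold by next-brightest probes is not given here, so the 4 cannot be read against it. The second Nfe2l2 probe, designed to a non-coding transcript (mm9 chr2:75529291-75529350), had a signal of 93.3 with Empty, 132.8 with Cd74 and 79.3 with Tmem54. Its difference was 0.57 with Cd74 and -0.25 with Tmem54. It was designed to another transcript than the messenger RNA probe, and which RNA it reads was not tested. Pgd also differed between probes: the second, designed to an Ensembl transcript, had a signal of 33.3, 31.96 and 20.3 and gave 0.01 with Cd74 and -0.73 with Tmem54. Gclm, Gclc, Srxn1, Osgin1 and Hmox1 had 1 probe each, so their values have no such check.

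**Figure D4:**
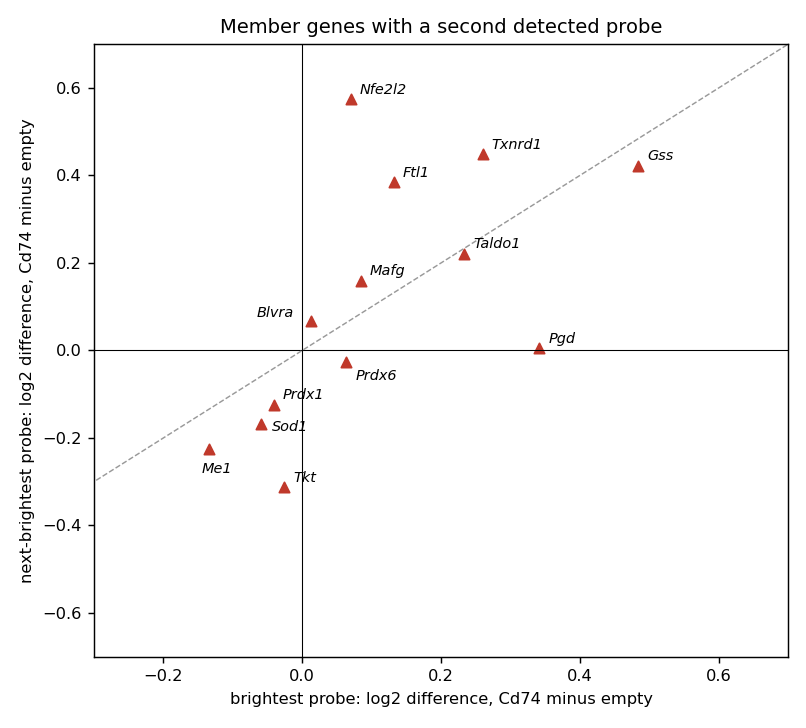
Log2 difference of Cd74 from Empty by the brightest probe (horizontal axis) and the next-brightest probe (vertical axis) for 13 members, with a dashed line of equality. Gss and Taldo1 lie near the line, Nfe2l2 at 0.07 and 0.57 and Pgd at 0.34 and 0.01 lie away from it, and the Tkt value of the second probe is a bound because its Cd74 signal was not well above background.

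Around the members, 8 lists with other genes of the pathway were read, chosen by function. Of the 20 genes listed as other NRF2 targets, 19 were detected. With Cd74, 3 of them (Slc7a11, Gsta2 and Trib3) were at least 2-fold higher and 0 lower, where 1.02% of all genes were higher and 1.4% lower. Trib3 is counted here although its increase on these arrays was already named by the study. Control of these genes by NRF2 or by other factors was not tested. Against Empty, 0 were higher and 2 lower with Tmem54, where 0.522% of all genes were higher and 0.812% lower. The cystine transporter gene Slc7a11, whose product imports the substrate for glutathione synthesis, had a signal of 249.1 with Empty, 704.5 with Cd74 and 103.7 with Tmem54. Its difference was 1.57 with Cd74 and -1.28 with Tmem54. Gsta2, an alpha-class glutathione transferase gene, had 93.997, 213.7 and 43.2, a difference of 1.25 and -1.13. Gsta3 had 294.03, 475.7 and 185.4, or 0.76 and -0.68, and Gsta4 had 1305, 1695 and 1002, or 0.44 and -0.39. With normexp background correction the Slc7a11 difference with Tmem54 was -0.90 and those of Gsta2 were 0.88 and -0.61, all short of 2-fold. In these 4 genes the Cd74 array was the highest and the Tmem54 array the lowest. Alpha-class transferases are alike in sequence, and a probe of 1 member may also bind RNA of another.

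Nqo1, the quinone reductase, had a signal of 482.1, 684.6 and 419.3 for Empty, Cd74 and Tmem54, a difference of 0.57 with Cd74, the same as Gclm. Trib3, for a stress-induced pseudokinase, gave 1.61. The study names its increase from these same arrays, so it is no independent evidence for the list. Gstm1 and Gstm2, of the mu class, gave -0.13 and -0.36, Ugdh -0.14 and Akr1b8 -0.24. The Gstm1 probe is placed on mm9 chromosome 5 and the Gstm2 probe on chromosome 3. Which locus the Gstm1 probe reads was not tested. With Cd74 against Empty, 11 of the 19 lay above 0 and 8 below, where 52.3% of all genes lay above 0. The median was 0.25 for Cd74 and -0.15 for Tmem54, against 0.012 and -0.003 over all genes.

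**Figure D5:**
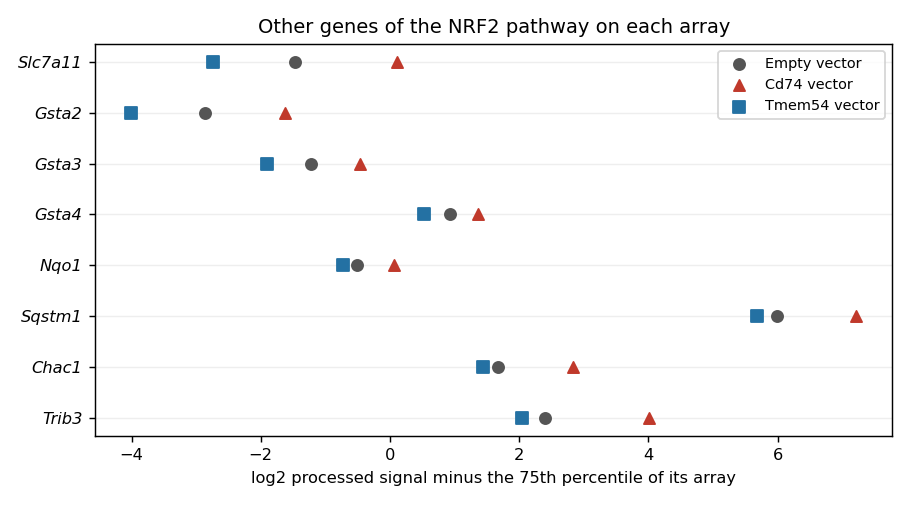
Level of 8 genes from the lists around the members on each array, in log2 units relative to the 75th percentile of its array, with 1 point per vector. The genes shown were at least 2-fold different in a comparison, except Gsta4 and Nqo1, which were added after their values were seen. The Cd74 point is the rightmost and the Tmem54 point the leftmost for each gene, an order that follows in part from this choice. The widest distance is 2.84, at Slc7a11. Of the 19 other NRF2 target genes detected, 13 lay above 0 and 6 below for Cd74 against Tmem54. Over all genes in that comparison, 54.4% lay above 0.

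Of 12 genes that control KEAP1 and NRF2, 10 were detected. Sqstm1, for the autophagy receptor p62 that sequesters KEAP1, had a signal of 43790, 97566 and 35552 for Empty, Cd74 and Tmem54, a difference of 1.22 with Cd74 and -0.31 with Tmem54. Its second probe gave 1.21, and the mean of all its detected probes 0.89, short of 2-fold. It was the only gene of that list at least 2-fold different. Of 10 detected genes in the glutathione list, Chac1, for an enzyme that degrades glutathione, went from 2188 to 4659 with Cd74 (1.16) and was 1878 with Tmem54 (-0.23). Slc3a2, for the heavy chain that pairs with the Slc7a11 product, gave 0.59 with Cd74 and -0.10 with Tmem54. Oplah, of the same list and dim, with signals of 38.9 with Empty and 24.8 with Cd74, gave -0.58. Of the 10, 6 lay above 0 and 4 below with Cd74, where 52.3% of all genes lay above 0. RNA of the glutathione synthesis genes and of Chac1 was thus higher on the Cd74 array.

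The remaining 5 lists held no gene at least 2-fold different in any comparison. Among 20 detected genes of heme and iron handling the median with Cd74 was 0.05. Alas1, the first enzyme of heme synthesis, gave 0.50, and Slc40a1, for the iron exporter ferroportin, gave 0.46. The 17 other peroxiredoxin, thioredoxin and glutaredoxin genes had a median of 0.00, with Txnrd3, a thioredoxin reductase, at 0.46 and Sesn1, for sestrin 1, at -0.44. The 10 other NADPH genes had a median of -0.09, with 8 below 0, where 52.3% of all genes lay above 0. Among the 8 was the mitochondrial isocitrate dehydrogenase gene Idh2 at -0.25, while the mitochondrial folate enzyme gene Mthfd2 gave 0.26. Of 11 genes for selenoproteins and their synthesis, with a median of 0.02, Selenop, for the secreted selenium carrier, was the lowest at -0.53, and Selenot gave -0.28. Of 10 oxidant source genes 7 were detected. The NADPH oxidase subunit genes Cyba and Ncf1 were near background, with bounds of at least 1.41-fold lower and at least 1.25-fold higher with Cd74, and the Ncf1 value turned below 0 with the mean of its probes (-0.54), with normexp (-0.21) and with its next probe (-0.15). Cybb was not well above background on any array.

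Markers of other cell types were read beside these results. Detected were 6 of 8 macrophage and B cell markers, with a summed signal of 12224 with Empty, 11075 with Cd74 and 12084 with Tmem54, and Adgre1 and Cd79a not well above background on any array. Of the 6, Cd68 gave 0.52 with Cd74 against Empty and 0.63 against Tmem54, in the direction of the members that were higher, and the other 5 lay below 0 with Cd74 against Empty. Fibroblast and stellate cell markers were detected for 8 of 9 genes, with Lum not well above background. Their summed signals were 90907, 92025 and 82568, mostly from Dcn, with 67724 on the Empty array. Dcn gave 0.22 with Cd74 and the other 7 lay below 0, with a median difference of -0.14 over the 8. Among them, Col1a1 gave -0.76 with Cd74 and 0.31 with Tmem54. Cholangiocyte markers were detected for 5 of 6 genes, with summed signals of 39640, 33807 and 43444, mostly from Krt7 and Spp1. With Cd74 against Empty, 2 lay above 0 (Sox9 at 0.35 and Krt19 at 0.15) and 3 below, with a median of -0.12. Endothelial markers were detected for 3 of 6 genes, all dim, with summed signals of 178.9, 163.5 and 179.1. Their part in the differences of the members was not tested.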

How the data were processed

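Total RNA of 3 samples was labelled with Cy3 and hybridised to 3 one-colour Agilent arrays, 1 per vector. The deposited intensity of each spot is credited by the submitters' processing notes to version 12.0.3.1 of Agilent's Feature Extraction software and is a linear signal after spatial and multiplicative detrending, with global background adjustment off, per the file headers. The authors' value table of the series was found to hold a ratio, the processed signal over 1 constant per array (580.3, 559.8 and 580.7), linear and uncentred, with column medians of 0.0409, 0.0393 and 0.039. Its constants are otherwise not explained in the sources used here. Control spots and spots with an outlier flag (119 to 135 per array) were left out. Values were log2 processed signals minus the 75th percentile of the array over spots other than controls. A gene took its brightest probe among those well above background on at least 1 array. A probe not well above background on 1 array gave a bound, written as at least N-fold, from the higher of the lowest signal well above background on the dim array and the probe's own. Genes were named through RefSeq (GRCm38.p6) for 33767 probes by accession, 9866 by symbol and 310 by synonym. Probe positions are on mm9. The number of arrays limits the precision, and no p-value is given.

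The genes named follow a rule: every member, and of each other list the genes at least 2-fold different in any comparison or otherwise the 2 with the largest difference of Cd74 from Empty. Other genes named from those lists were chosen after their values were seen. The members and lists were chosen with earlier results of these data known. The 1.3-fold limit was added after the values were seen. The computation of differences and of counts past 2-fold was tested on simulated data with known differences; this tests the arithmetic and not the biological spread. Python 3.11.15, R 4.3.3 and limma 3.58.1 were used.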

Additional observations from a re-analysis of the deposited data

How the results depend on the processing

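No paired analysis was possible because each vector has 1 array and the comparison comes from no test. Across 9 alternatives (normexp correction with an offset of 50, 2 other scalings, the authors' value table, mean or next-brightest probes, 2 filters on dim probes, and outlier flags kept) no value at least 2-fold in the main setting changed sign. The Hmox1 difference from Empty with Cd74 ranged from 1.90 to 1.95 over the settings that gave it, Gclm from 0.52 to 0.58, Gclc from 0.40 to 0.44, Gss from 0.42 to 0.48, Srxn1 from 0.46 to 0.54 and Osgin1 from 0.52 to 0.54. Slc7a11 ranged from -1.86 to -0.90 with Tmem54, Gsta2 with Cd74 from 0.88 to 1.26 and Sqstm1 with Cd74 from 0.89 to 1.24, so these depend on the setting for passing 2-fold.

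The mean of all detected probes gave a members' median of 0.12 for Cd74 against Empty and 1 member at least 1.3-fold lower with Tmem54 (Pgd, -0.45). Next-brightest probes, present for 13 members and not for Hmox1, gave 0 members at least 2-fold higher with Cd74 against Empty and 0 against Tmem54, 4 at least 1.3-fold higher with Cd74 against Empty, 1 at least 1.3-fold lower with Tmem54 (Pgd), and, for Cd74 against Tmem54, 5 at least 1.3-fold higher and a median of 0.20. The 1.3-fold counts by these probes have no share of all genes beside them. Counts of all genes at least 2-fold higher and lower were 58 and 61 with normexp for Cd74 against Empty, 32 and 34 for Tmem54 against Empty, and 94 and 103 for Cd74 against Tmem54. With next-brightest probes they were 49 and 50, 30 and 37, and 64 and 67. With genes well above background on all 3 arrays they were 56 and 125, 23 and 57, and 138 and 170, and with bright genes 25 and 32, 3 and 12, and 57 and 69, in the same order of comparisons. The main counts were 160 and 219, 81 and 126, and 251 and 261. No scaling moved the share of higher calls by over 10 percentage points or the median of all genes by over 0.1. Signal over background limits the counts over all genes: of the 160 genes higher with Cd74, 25 were bright, whereas 30 of the 31 members were. With 1 array per vector, neither array of a comparison can be left out of it.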
